A study of Homo sapiens with 8 samples.

Results

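Chromatin writers, erasers and readers are the enzymes and binding proteins that place, remove and recognize chemical marks on histones and DNA, together with the machines that move nucleosomes. The 57 genes described here were taken by symbol from the 23228 genes counted in each library, and all 57 were found and tested. They comprise 5 histone acetyltransferases, 4 genes of Polycomb repressive complex 2, 6 genes of DNA methylation and hydroxymethylation, 10 histone demethylases, 10 other histone methyltransferases, 4 bromodomain proteins, 6 SWI/SNF genes, 8 genes of NuRD and other corepressors, and 4 genes of chromatin architecture. The histone deacetylases themselves were not among them.

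RNA was sequenced from BT-549, a human triple negative breast cancer cell line grown in RPMI medium with serum, after 24 h with vehicle (DMSO), with EC359 at 100 nM, with vorinostat at 10 µM, or with both drugs at these doses, here called the combination. EC359 is an inhibitor of the leukemia inhibitory factor receptor LIFR, and vorinostat, also called SAHA or HDACi in the labels, inhibits histone deacetylases. The study asked how blocking LIFR alters the response of these cells to a histone deacetylase inhibitor. There were 2 libraries per group and 8 in all, from 1 cell line. The study's methods describe its in vitro assays in general as done in biological replicates, but the labels do not say whether these libraries came from separate cultures. If they did not, the p-values measure only technical spread.

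Histone acetyltransferases add acetyl groups to lysines and deacetylases take them off, and bromodomain proteins bind the acetylated tails. Deacetylases work inside corepressor complexes such as NuRD, Sin3, CoREST and NCoR, several subunits of which are members here. SWI/SNF complexes slide or evict nucleosomes and carry a single ATPase, either SMARCA4 (BRG1) or SMARCA2 (BRM). Methyltransferases and demethylases set the methylation of histone lysines and arginines, while DNMT enzymes methylate cytosine in DNA and TET enzymes oxidize it.

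Gene counts per library ran from 19069450 to 24759041, and the lowest raw count of any member in any library was 70. Values are given as CPM, the count of a gene as a share of its library's TMM-scaled total, and a member is said to have risen or fallen where edgeR's quasi-likelihood test over 13694 genes gave a Benjamini-Hochberg adjusted p under 0.01. The standard error of a member's log2 fold change lay between 0.08 and 0.32 in every comparison of treatments, with a median of 0.12. The EC359 libraries differed most from each other: 18 members were over 1.25 times higher in replicate 1 than in replicate 2 and 2 the other way, against 1 and 1 in vehicle, 1 and 0 in vorinostat and 2 and 1 in the combination. The labelled cell type was checked on markers: ESR1 and PGR, the hormone receptors, reached at most 1.02 and 0.0511 CPM in any library. The receptor gene ERBB2 lay at 96.1 and 102 CPM in vehicle and at 15.8 and 14.8 CPM in vorinostat. Markers of leukocytes and endothelium, PTPRC and PECAM1, reached at most 0.708 and 0.204 CPM.

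Vorinostat lowered most of the chromatin genes that it changed. Against vehicle, 31 of the 57 members fell (54.4%) and 6 rose (10.5%), while of all tested genes 25.9% fell and 26.2% rose. With a log2 fold change over 1 as a further condition, 18 fell and 3 rose, beside 13.3% and 16.8% of all tested genes. In the combination 30 fell and 7 rose against vehicle, beside 26.7% and 29.7% of all tested genes, and with the further condition 17 fell and 2 rose, beside 15.3% and 19.5%. In either direction 37 members passed under vorinostat, beside 52.1% of all tested genes, and 37 in the combination, beside 56.4%. With the further condition these counts were 21, beside 30.1%, and 19, beside 34.8%. Against vehicle, EC359 alone raised 5 members and lowered 1, beside 3.81% and 4.01% of all tested genes. These comparisons share the vehicle libraries. In bulk RNA a lower level in every cell and a smaller number of cells with the transcript cannot be told apart. The members together took 0.663% and 0.632% of gene counts in vehicle and 0.735% and 0.649% in EC359, but 0.440% and 0.444% in vorinostat and 0.404% and 0.421% in the combination. Their share was lower in each of the 4 libraries with vorinostat than in each of the 4 without it. The median log2 fold change of the members was -0.57 under vorinostat, against 0.03 over all tested genes, and it was -0.57 against 0.07 in the combination and 0.06 against -0.02 under EC359. In 10 members (EP300, EED, SUZ12, KDM2A, KDM4A, KDM5A, PRMT5, BRD2, SIN3A and HMGN5) no comparison passed the edgeR test in the fit of all 8 libraries.

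**Figure D1:**
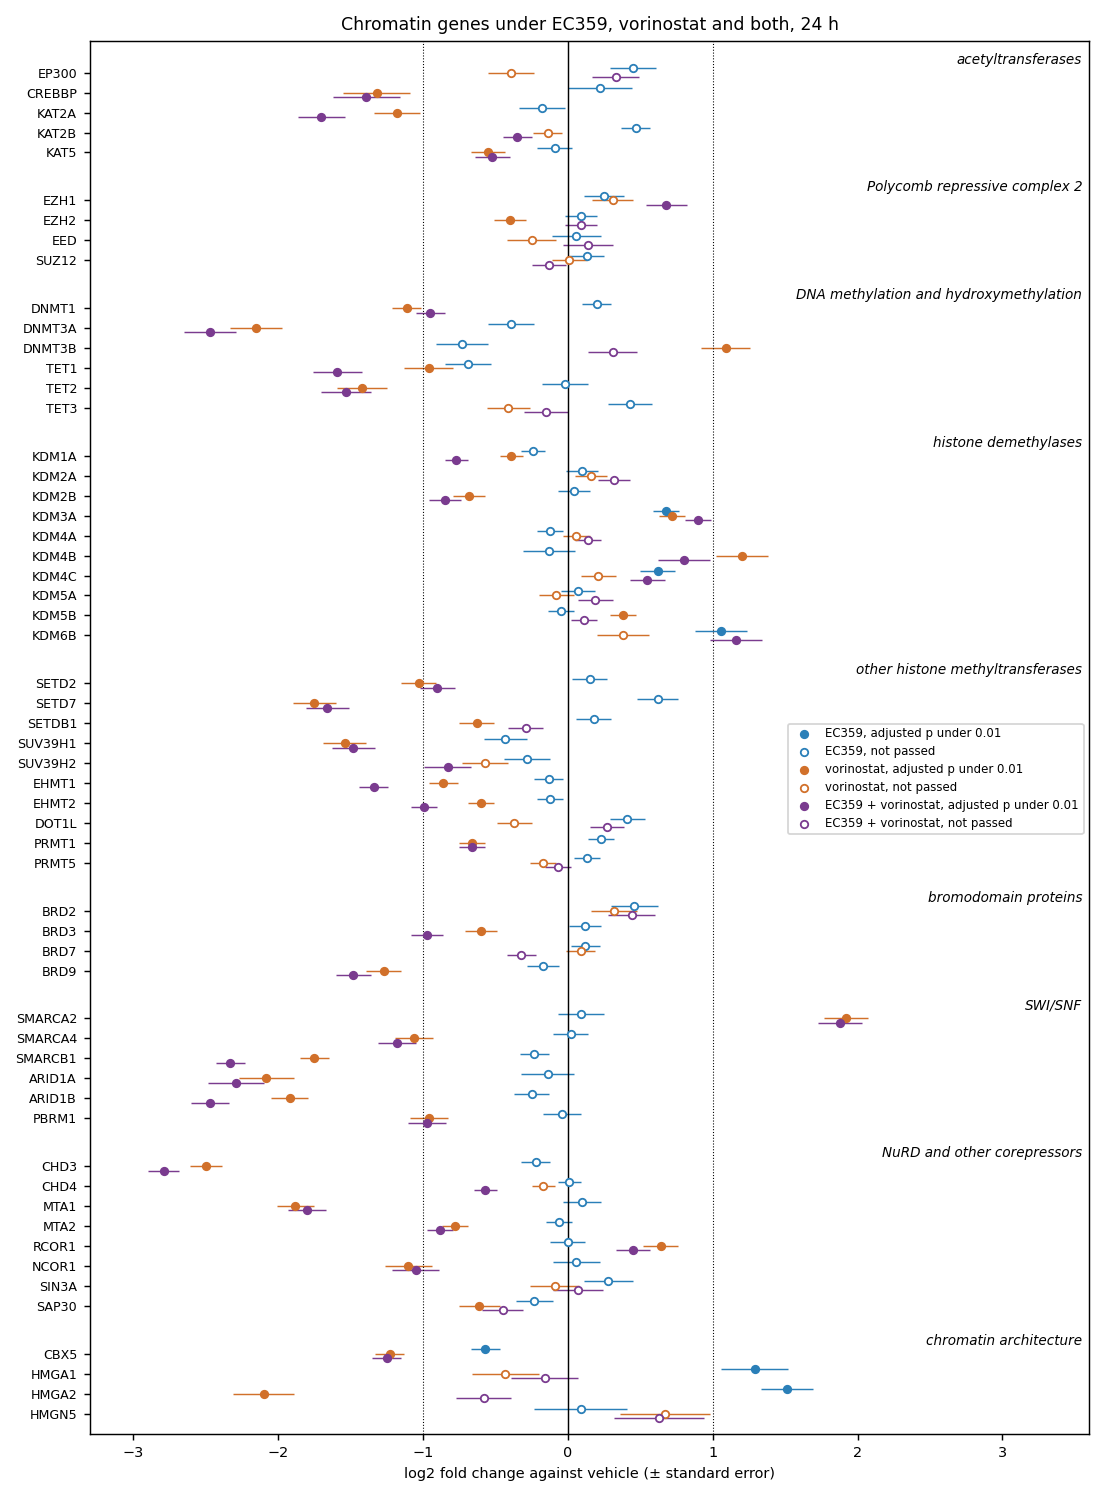
Log2 fold change against vehicle (horizontal axis, bars are standard errors) of the 57 chromatin genes, grouped by role, under EC359, vorinostat and both. Filled points have an adjusted p under 0.01 by edgeR, and dotted lines mark a log2 fold change of 1 in either direction. Under vorinostat 31 points with a passing test lie left of 0 and 6 lie right of it.

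Other chromatin genes moved in the same direction under vorinostat, where 25.9% of all tested genes fell and 26.2% rose. Of 166 further writers, erasers, readers, remodellers and their subunits that were tested, 77 fell (46.4%) and 29 rose (17.5%) under vorinostat, with a median log2 fold change of -0.48. PHF19, PHF2 and NSD1 had the largest decreases, by 3.88, 3.26 and 3.08 on the log2 scale. CORO2A, PCGF5 and KDM1B had the largest increases, of 3.74, 3.18 and 2.28. In the combination 69 fell and 33 rose against vehicle, beside 26.7% and 29.7% of all tested genes. Under EC359 alone 5 fell and 5 rose (3.01% each), beside 4.01% and 3.81%. A list of 12 proliferation genes moved with them: 9 fell and 1 rose under vorinostat, with a median of -0.85, and MKI67 went from 529 and 438 CPM in vehicle to 148 and 150 CPM in vorinostat. The part of proliferation in the changes of the chromatin genes was not tested.

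**Figure D2:**
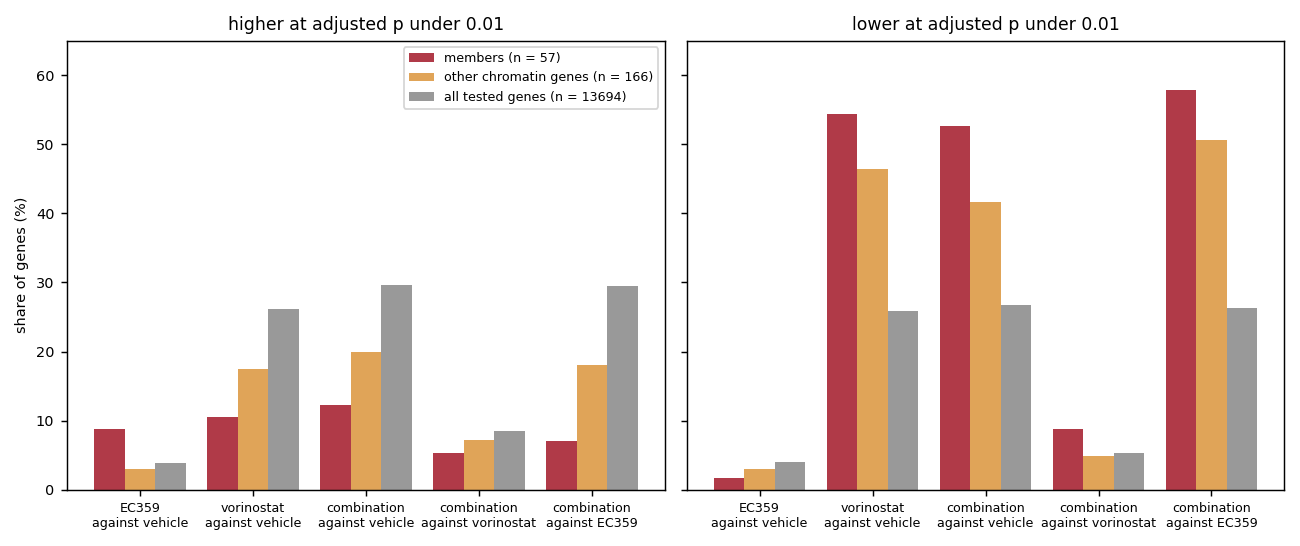
Share of genes (vertical axis, %) with an adjusted p under 0.01, higher at left and lower at right, in 5 comparisons, for the 57 members, 166 other chromatin genes and all 13694 tested genes. In the 3 comparisons of a group with vorinostat against one without it, 52.6% to 57.9% of the members were lower, above the 25.9% to 26.7% of all tested genes.

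Of the 6 members taken for the SWI/SNF remodelling complex, 5 fell and SMARCA2 rose under vorinostat, beside 25.9% and 26.2% of all tested genes. The complex has further subunits: of 15 more of its genes among the other chromatin genes, grouped after their values were seen, 6 fell, 3 rose and 6 did not pass. The ATPase gene SMARCA2 (chr9:1980290-2193624 on GRCh37, plus strand) stood at 8.21 and 7.66 CPM in vehicle, 9.44 and 7.36 in EC359, 28.6 and 31.3 in vorinostat and 29.2 and 29.4 in the combination. All 4 libraries with vorinostat were above all 4 without it. The log2 fold change for vorinostat against vehicle was 1.92 ± 0.15 (SE from the fit of all 8 libraries, n = 2 per group, edgeR, adjusted p = 6.7e-06). The alternative ATPase gene SMARCA4 (chr19:11071608-11190102 on GRCh37, plus strand) went the other way, from 379 and 327 CPM in vehicle and 394 and 320 in EC359 to 171 and 169 in vorinostat and 145 and 166 in the combination. Vorinostat gave it a log2 fold change of -1.06 ± 0.13 (edgeR, adjusted p = 7.9e-05), and the 2 sets of 4 libraries did not overlap. Per kilobase of transcript, SMARCA4 still stood above SMARCA2, at 30.5 against 5.21 CPM per kilobase in vorinostat, compared with 63.3 against 1.38 in vehicle. Both genes of this pair thus passed in opposite directions with a log2 fold change over 1, as did DNMT3A and DNMT3B, described with DNA methylation.

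The 4 other subunit genes listed under this role, ARID1A, ARID1B, SMARCB1 and PBRM1, fell, while the subunit genes BRD7 and BRD9 are described with the bromodomain proteins. ARID1A (chr1:27019727-27108595 on GRCh37), a DNA-binding subunit of the BAF form of the complex and a frequently mutated tumour suppressor, went from 238 and 215 CPM in vehicle and 251 and 161 in EC359 to 53.6 and 53.4 in vorinostat and 44.2 and 48.8 in the combination. Its paralog ARID1B went from 95.8 and 94.1 CPM in vehicle and 88.0 and 71.2 in EC359 to 25.6 and 24.5 in vorinostat and 18.1 and 16.1 in the combination. The log2 fold changes under vorinostat were -2.08 ± 0.19 and -1.92 ± 0.13 (edgeR, adjusted p = 1.3e-05 and 2.2e-06). SMARCB1, a core subunit whose loss causes rhabdoid tumours, stood at 92.1 and 93.6 CPM in vehicle, 82.1 and 75.6 in EC359, 26.4 and 28.8 in vorinostat and 18.1 and 18.7 in the combination. It was lower in vorinostat than in vehicle (log2 fold change -1.75 ± 0.10, adjusted p = 1.2e-06) and lower again in the combination than in vorinostat (-0.58 ± 0.10, edgeR, adjusted p = 0.0037). The SMARCB1 transcript overlaps that of DERL3 on the opposite strand by 2747 bases, and since no source gives the strand setting, reads of the 2 genes may not be told apart. PBRM1, a bromodomain subunit of the PBAF form, fell by 0.96 on the log2 scale under vorinostat.

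**Figure D3:**
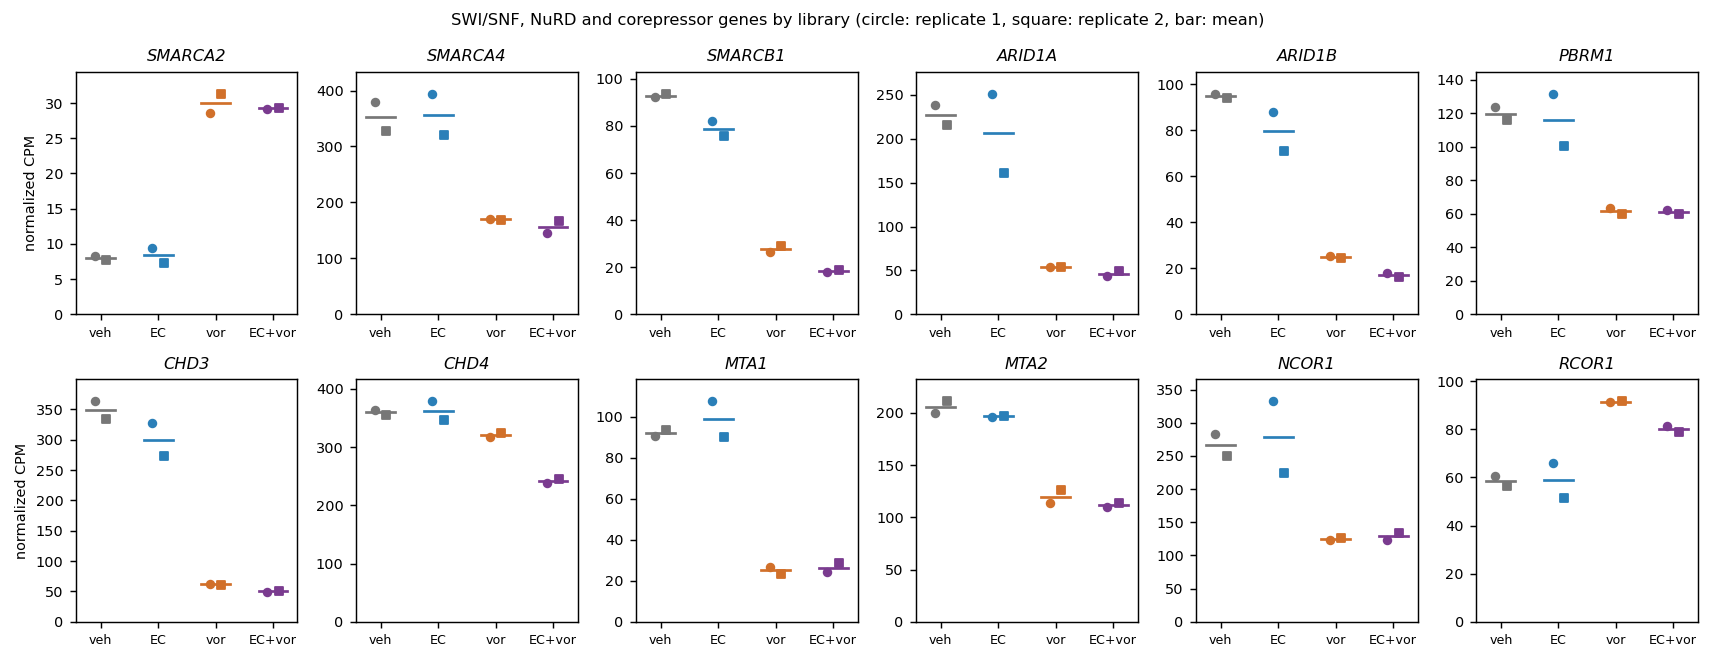
TMM-scaled CPM (vertical axis, from 0) of 12 remodelling and corepressor genes in each of the 8 libraries, for vehicle (veh), EC359 (EC), vorinostat (vor) and the combination (EC+vor), with bars at the group means. SMARCA2 and RCOR1 are higher in the libraries with vorinostat, CHD4 differs little between vehicle and vorinostat, and the other 9 genes are lower in every library with vorinostat.

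The nucleosome remodelling and deacetylase complex, NuRD, joins a CHD ATPase and MTA scaffold proteins to deacetylases. CHD3 (chr17:7788114-7816078 on GRCh37, plus strand) had the largest decrease of any member, from 363 and 334 CPM in vehicle and 327 and 273 in EC359 to 62.1 and 60.9 in vorinostat and 49.5 and 51.4 in the combination. The log2 fold change was -2.50 ± 0.11 under vorinostat and -2.79 ± 0.11 in the combination (edgeR, adjusted p = 3.4e-07 and 1.2e-07). Its paralog CHD4 stood at 364 and 355 CPM in vehicle, 379 and 346 in EC359, 317 and 324 in vorinostat and 238 and 245 in the combination. CHD4 did not pass under vorinostat (log2 fold change -0.17 ± 0.08, adjusted p = 0.1) but fell in the combination against vehicle (-0.57 ± 0.08) and against vorinostat (-0.41 ± 0.08, edgeR, adjusted p = 0.0072). The log2 ratio of CHD3 to CHD4 counts was between -0.34 and 0.00 in the 4 libraries without vorinostat and between -2.41 and -2.25 in the 4 with it.

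MTA1 went from 90.5 and 93.8 CPM in vehicle and 108 and 90.4 in EC359 to 26.6 and 23.5 in vorinostat and 24.2 and 28.7 in the combination, a log2 fold change of -1.88 ± 0.13 under vorinostat (edgeR, adjusted p = 3.3e-06). MTA2 fell by 0.78 on the log2 scale. NCOR1, a corepressor of nuclear receptors that binds HDAC3, went from 283 and 250 CPM in vehicle and 332 and 225 in EC359 to 123 and 126 in vorinostat and 123 and 134 in the combination. For NCOR1 this gave -1.10 ± 0.16 on the log2 scale under vorinostat (edgeR, adjusted p = 0.00033). RCOR1, the CoREST scaffold that holds KDM1A and the deacetylases together, rose instead, by 0.64 ± 0.12 (adjusted p = 0.0014). SAP30, a Sin3 subunit, fell under vorinostat with a log2 fold change of -0.61 ± 0.14. Its Sin3 scaffold SIN3A lay between 98.4 and 156 CPM in all libraries and passed in no comparison.

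**Figure D4:**
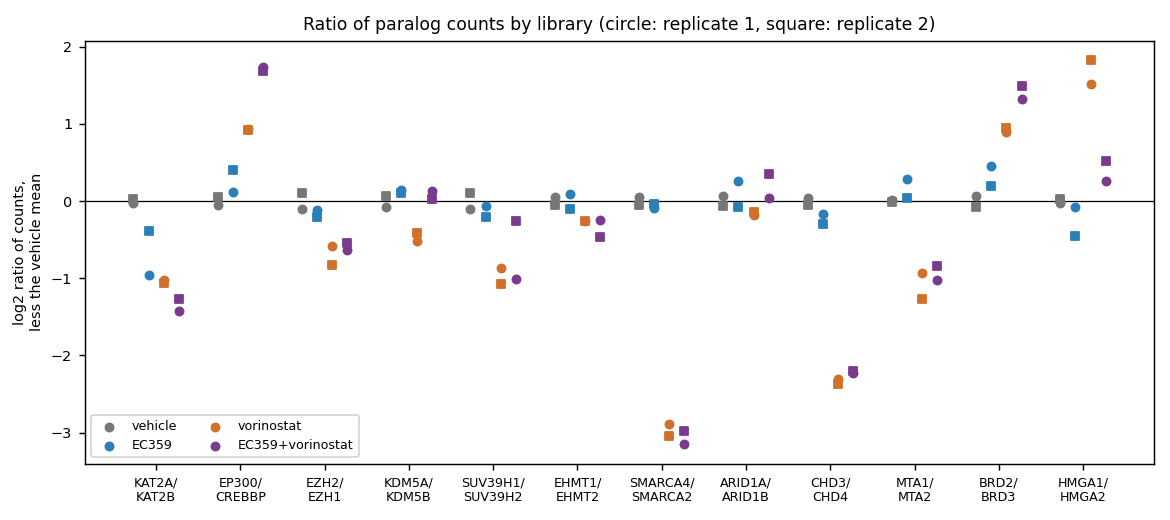
Log2 ratio of the counts of 12 pairs of related genes in each library (vertical axis), less the mean of the 2 vehicle libraries. The ratio of SMARCA4 to SMARCA2 falls by about 3 and that of CHD3 to CHD4 by over 2 in the 4 libraries with vorinostat, while ARID1A to ARID1B stays within 0.5 of vehicle.

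Among the 5 acetyltransferases, CREBBP and KAT2A fell by over 1 on the log2 scale under vorinostat, KAT5 fell by less and EP300 and KAT2B did not pass. CREBBP, also called CBP, went from 119 and 95.3 CPM in vehicle and 157 and 91.4 in EC359 to 41.9 and 43.7 in vorinostat and 37.9 and 44 in the combination, a log2 fold change of -1.32 ± 0.23 under vorinostat (edgeR, adjusted p = 0.00078). Its paralog EP300, or p300, lay at 87.6 and 75.5 CPM in vehicle, 130 and 91.8 in EC359, 61.0 and 63.2 in vorinostat and 96.3 and 109 in the combination. EP300 passed in no comparison in the edgeR fit of all 8 libraries. It stood just above the threshold in the combination against vorinostat (0.72 ± 0.16, edgeR, adjusted p = 0.011), where the groups did not overlap and DESeq2 called it. The log2 ratio of EP300 to CREBBP counts was -0.44 and -0.34 in vehicle, 0.54 and 0.53 in vorinostat and 1.35 and 1.30 in the combination. KAT2A (GCN5), a catalytic subunit of SAGA, went from 65.7 and 65.1 CPM in vehicle and 47.3 and 68.2 in EC359 to 29.7 and 28.1 in vorinostat and 20.16 and 19.97 in the combination. The log2 fold change of KAT2A was -1.18 ± 0.16 under vorinostat and -1.70 ± 0.16 in the combination. KAT2B (PCAF) had log2 fold changes of -0.14 ± 0.10 under vorinostat (adjusted p = 0.24) and -0.35 ± 0.10 in the combination (edgeR, adjusted p = 0.0099), the latter a call lost under 8 of the alternatives tried. KAT5 (TIP60), which overlaps RNASEH2C on the opposite strand, fell by 0.55 under vorinostat.

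In DNA methylation the 2 enzymes for new methylation went opposite ways. DNMT3A stood at 26.3 and 29.1 CPM in vehicle, 24.1 and 18.2 in EC359, 5.81 and 6.67 in vorinostat and 5.015 and 5.005 in the combination. It fell by 2.15 ± 0.18 on the log2 scale under vorinostat and by 2.47 ± 0.18 in the combination (edgeR, adjusted p = 7.9e-06 and 3.1e-06). DNMT3B stood at 12.1 and 9.81 CPM in vehicle, 7.34 and 5.83 in EC359, 22.0 and 24.8 in vorinostat and 13.9 and 13.2 in the combination. It rose under vorinostat (log2 fold change 1.09 ± 0.17, adjusted p = 0.00037) and was lower in the combination than in vorinostat (-0.79 ± 0.17, edgeR, adjusted p = 0.0084), and the libraries of these groups did not overlap. EC359 alone gave DNMT3B a log2 fold change of -0.73 ± 0.18 that did not pass (adjusted p = 0.022), and the interaction of the drugs was -0.06 ± 0.24.

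DNMT1, which copies methylation after replication, went from 427 and 380 CPM in vehicle and 495 and 430 in EC359 to 184 and 191 in vorinostat and 203 and 213 in the combination, a log2 fold change of -1.11 ± 0.10 under vorinostat (edgeR, adjusted p = 1.5e-05). TET2, which oxidizes methylcytosine, went from 35.9 and 31.8 CPM in vehicle and 38.4 and 28.2 in EC359 to 12.6 and 12.7 in vorinostat and 10.8 and 12.6 in the combination. TET1 was at 12.6 and 11.9 CPM in vehicle, 8.08 and 7.05 in EC359, 6.79 and 5.82 in vorinostat and 4.15 and 3.98 in the combination. The log2 fold changes under vorinostat were -1.42 ± 0.17 for TET2 and -0.96 ± 0.17 for TET1, and in the combination against vehicle they were -1.53 ± 0.17 and -1.59 ± 0.17. TET3 passed in the combination against EC359 alone, where it was lower by a log2 fold change of -0.58 ± 0.15, a call lost under 7 of the alternatives tried.

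Histone methyltransferases other than EZH1 and EZH2 had 7 of 10 genes lower under vorinostat, beside 25.9% of all tested genes. The 3 that did not pass were SUV39H2, DOT1L and PRMT5, with log2 fold changes of -0.57 ± 0.16, -0.37 ± 0.12 and -0.17 ± 0.09. SETD7, which methylates histone H3 lysine 4 and non-histone proteins, went from 104 and 99.0 CPM in vehicle and 176 and 135 in EC359 to 31.5 and 29.0 in vorinostat and 35.1 and 29.1 in the combination. SETD7 fell by 1.75 ± 0.15 on the log2 scale under vorinostat (edgeR, adjusted p = 9.2e-06). SUV39H1, which writes the heterochromatin mark on histone H3 lysine 9, went from 38.0 and 43.4 CPM in vehicle and 28.6 and 32.1 in EC359 to 15 and 13.1 in vorinostat and 13.2 and 16.1 in the combination. The log2 fold change of SUV39H1 was -1.54 ± 0.15.

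EHMT1 and EHMT2, partner enzymes for lysine 9 dimethylation, fell by 0.86 and 0.60 on the log2 scale under vorinostat and by 1.34 and 0.99 in the combination. EHMT1 stood at 105 and 98.6 CPM in vehicle, 97.0 and 89.1 in EC359, 56.5 and 55.6 in vorinostat and 42.8 and 37.6 in the combination, and the last 2 groups also differed (edgeR, adjusted p = 0.0094). SETD2, the enzyme for lysine 36 trimethylation, went from 152 and 142 CPM in vehicle and 178 and 149 in EC359 to 67.3 and 76.5 in vorinostat and 82.2 and 75.2 in the combination, a log2 fold change of -1.03 ± 0.12 under vorinostat. SETDB1 and PRMT1 had smaller decreases under vorinostat, of -0.63 ± 0.12 and -0.66 ± 0.09. PRMT1, the main arginine methyltransferase, had the highest level per kilobase of any member in vehicle, at 211 CPM per kilobase, and TET1 the lowest, at 1.28. DOT1L, the lysine 79 methyltransferase, was the member of this role that was higher in the combination than in vorinostat, at 71.7 and 80.0 against 46.1 and 51.3 CPM (log2 fold change 0.64 ± 0.12, edgeR, adjusted p = 0.0058).

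Polycomb repressive complex 2, which trimethylates histone H3 lysine 27, had 1 of its 4 genes lower under vorinostat and 1 higher in the combination against vehicle, counts near the 25.9% and 29.7% of all tested genes. Its catalytic gene EZH2 lay at 62.5 and 62.5 CPM in vehicle, 71.5 and 61.8 in EC359, 49.0 and 45.8 in vorinostat and 63.5 and 69.8 in the combination. It fell under vorinostat (log2 fold change -0.40 ± 0.11, adjusted p = 0.0094), a call lost under 10 of the alternatives tried. EZH1, the other catalytic gene, rose in the combination against vehicle (0.68 ± 0.14, edgeR, adjusted p = 0.0019), a call lost under 3 of the alternatives. The subunit genes EED and SUZ12 had log2 fold changes between -0.25 and 0.14 against vehicle and passed in no comparison.

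Among the 10 histone demethylases, KDM3A, KDM4B and KDM5B rose under vorinostat, KDM1A and KDM2B fell and 5 did not pass, counts near the 26.2% higher and 25.9% lower among all tested genes. KDM4B, which removes lysine 9 methylation, stood at 53.2 and 54.4 CPM in vehicle, 38.2 and 60.4 in EC359, 124 and 123 in vorinostat and 98.5 and 89.2 in the combination. KDM4B rose by 1.20 ± 0.18 on the log2 scale under vorinostat and 0.80 ± 0.18 in the combination (edgeR, adjusted p = 0.00033 and 0.0033). The call in the combination was lost under 6 of the alternatives tried. KDM1A (LSD1), a lysine 4 demethylase, was at 253 and 247 CPM in vehicle, 209 and 214 in EC359, 193 and 189 in vorinostat and 141 and 152 in the combination, and the decrease from vorinostat to the combination passed as well (-0.38 ± 0.08, adjusted p = 0.0098). KDM2A, KDM4A and KDM5A had log2 fold changes against vehicle between -0.12 and 0.32 and passed in no comparison.

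The bromodomain genes were split. BRD9, a subunit of the non-canonical BAF form, went from 41.5 and 43.6 CPM in vehicle and 38.5 and 37.3 in EC359 to 17.5 and 17.8 in vorinostat and 14.3 and 16.1 in the combination, a log2 fold change of -1.27 ± 0.12 under vorinostat (edgeR, adjusted p = 1.5e-05). BRD3 fell by 0.60 under vorinostat. BRD2, a BET protein like BRD3, had a log2 fold change of 0.32 ± 0.16 that did not pass (adjusted p = 0.094). BRD7, a PBAF subunit, was lower in the combination than in EC359 (-0.44 ± 0.10, edgeR, adjusted p = 0.0048), a call lost under 3 of the alternatives tried. The transcripts of BRD3 and BRD7 each overlap a gene on the opposite strand.

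Under EC359 alone HMGA2, HMGA1, KDM6B, KDM3A and KDM4C rose against vehicle and CBX5 fell (10.5% of the members, beside 7.82% of all tested genes). The first 3 of these had a log2 fold change over 1, beside 3.67% of all tested genes in either direction. HMGA2 (chr12:66218240-66360071 on GRCh37), an architectural protein that bends AT-rich DNA and is known from fetal and tumour tissue, stood at 15.7 and 13.3 CPM in vehicle, 46.6 and 35.7 in EC359, 3.81 and 2.98 in vorinostat and 9.06 and 10.4 in the combination. The 4 groups did not overlap. HMGA2 rose 2.84-fold with EC359 (log2 fold change 1.51 ± 0.18, adjusted p = 0.00062) and fell 4.29-fold with vorinostat (-2.10 ± 0.21, adjusted p = 2.4e-05). In the combination it was 2.88-fold higher than in vorinostat (1.52 ± 0.21, edgeR, adjusted p = 0.0011), and the interaction of the drugs was 0.02 ± 0.26 on the log2 scale. Against vehicle the combination gave HMGA2 a log2 fold change of -0.58 ± 0.19, which did not pass (edgeR, adjusted p = 0.021).

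HMGA1, the paralog of HMGA2, lay at 176 and 155 CPM in vehicle, 508 and 299 in EC359, 125 and 121 in vorinostat and 125 and 171 in the combination. It rose with EC359 (log2 fold change 1.29 ± 0.23, adjusted p = 0.0057), but in the combination its level overlapped those of vehicle and vorinostat, and the difference from EC359 alone was -1.45 ± 0.23 (edgeR, adjusted p = 0.00046). The 2 EC359 libraries were far apart for this gene, although both exceeded every other library. KDM6B (JMJD3), the demethylase that removes the Polycomb mark, stood at 48.3 and 43.9 CPM in vehicle, 117 and 75.8 in EC359, 61.2 and 58.6 in vorinostat and 97.2 and 109 in the combination. It rose with EC359 (1.06 ± 0.18, adjusted p = 0.0042) and in the combination (1.16 ± 0.18, edgeR, adjusted p = 0.00037) against vehicle.

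KDM3A, a lysine 9 demethylase, rose in each treated group, from 66.9 and 66.1 CPM in vehicle to 108 and 105 in EC359, 109 and 111 in vorinostat and 131 and 118 in the combination. The log2 fold changes against vehicle were 0.68 ± 0.09, 0.72 ± 0.09 and 0.90 ± 0.09 in that order (edgeR, adjusted p = 0.0012, 0.00011 and 2.3e-05). KDM4C, also a lysine 9 demethylase, lay at 30.6 and 26.2 CPM in vehicle, 43.6 and 43.7 in EC359, 32.1 and 33.8 in vorinostat and 43.3 and 39.5 in the combination. KDM4C rose against vehicle with EC359 (log2 fold change 0.62 ± 0.12, adjusted p = 0.0074) and in the combination (0.55 ± 0.12, edgeR, adjusted p = 0.0026). The 4 libraries of these 2 groups were all above the others. The calls were lost under 8 and 5 of the alternatives tried, in that order. CBX5, which encodes the heterochromatin protein HP1 alpha, was at 267 and 267 CPM in vehicle, 195 and 164 in EC359, 113 and 114 in vorinostat and 112 and 112 in the combination. It fell with EC359 (log2 fold change -0.57 ± 0.10, adjusted p = 0.0044) and with vorinostat (-1.23 ± 0.10, edgeR, adjusted p = 7.2e-06). HMGN5, a nucleosome-binding protein, lay between 5.94 and 15.2 CPM and passed in no comparison.

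The calls for EC359 alone changed with single libraries. Without EC359 replicate 2, 16 members passed, beside 26.6% of all genes then tested. Without vehicle replicate 1 HMGA2 alone passed, and without vehicle replicate 2 no member passed by edgeR, beside 2.60% and 2.47% of all genes. Leaving out either vorinostat or either combination library left HMGA2 and KDM3A, beside 4.54% to 5.24% of all genes. The count over all genes thus moved with the count of members. At an unadjusted p under 0.05, 19 members passed with all libraries (33.3%, beside 30.9% of all tested genes). DESeq2 called 8 members, beside 12.2% of all tested genes.

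**Figure D5:**
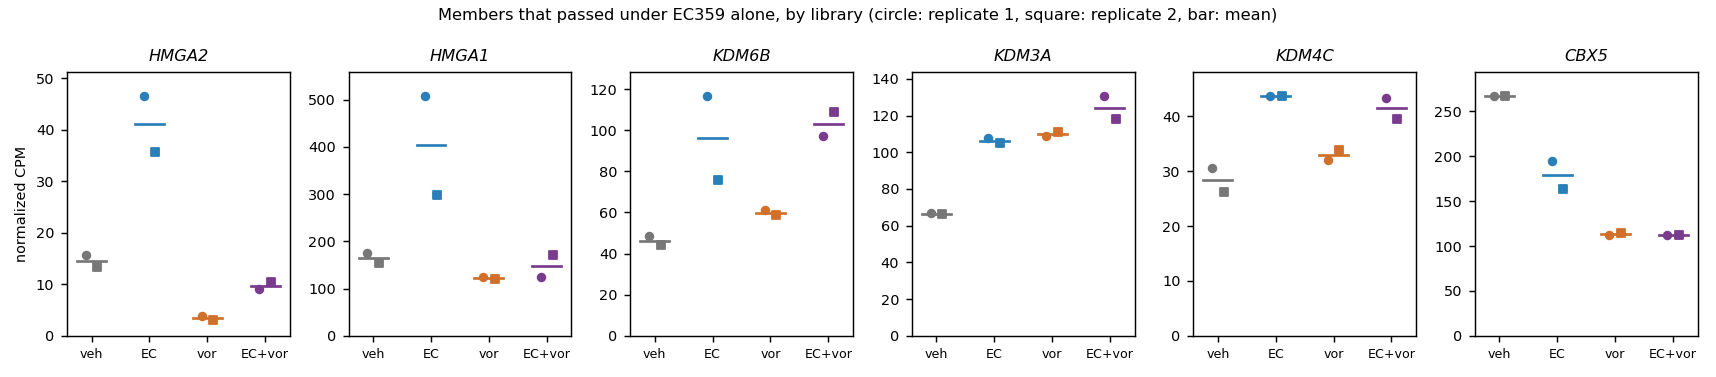
TMM-scaled CPM (vertical axis, from 0) in each library of the 6 members that passed under EC359 alone, for vehicle (veh), EC359 (EC), vorinostat (vor) and the combination (EC+vor), with bars at the group means. HMGA2 is above vehicle in EC359 and below it in vorinostat and the combination, but its difference between the combination and vehicle did not pass. Both EC359 libraries exceed every other library for HMGA1 and HMGA2.

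Adding EC359 to vorinostat changed 8 members, with 3 higher and 5 lower, beside 8.45% and 5.26% of all tested genes. These 8 are to be read against 13.7% of all tested genes in either direction. EZH2, DOT1L and HMGA2 were higher in the combination than in vorinostat, and DNMT3B, KDM1A, EHMT1, SMARCB1 and CHD4 were lower. HMGA2 was the 1 member whose log2 fold change also exceeded 1, beside 4.25% of all tested genes. EZH2 stood at the threshold (adjusted p = 0.01 after rounding). These calls were also sensitive to single libraries: leaving out either vorinostat or either combination library left none by edgeR, beside 2.48% to 3.98% of all genes then tested. Leaving out either vehicle library left 1, HMGA2, beside 8.18% and 8.19%, and leaving out either EC359 library gave 19, beside 32.2% and 32.3%. With all libraries 22 members passed at an unadjusted p under 0.05 (38.6%, beside 40.5% of all tested genes). DESeq2 called 13 members, beside 20.4% of all tested genes.

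Against EC359 alone the combination had 33 members lower and 4 higher, beside 26.3% and 29.5% of all tested genes and 55.8% in either direction. With a log2 fold change over 1 there were 22, beside 33.7% of all tested genes. The 4 higher members were SMARCA2, DNMT3B, KDM4B and RCOR1. The RCOR1 call (0.44 ± 0.12, edgeR, adjusted p = 0.0098) was lost under 11 of the alternatives tried and the KDM4B call under 2. The decreases were led by CHD3 (log2 fold change -2.57 ± 0.11), SETD7 (-2.28 ± 0.15) and ARID1B (-2.22 ± 0.13). PRMT1, the arginine methyltransferase, was lower by 0.89 on the log2 scale, at 166 and 189 CPM in the combination and 329 and 329 in EC359.

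The interaction, which measures whether the combination departs from the sum of the log2 effects of each drug, passed in no member by edgeR, beside 2.10% of all tested genes. At an unadjusted p under 0.05 there were 12 members (21.1%, beside 22.4% of all tested genes). DESeq2 called 1 member, KAT2B, beside 5.21% of all tested genes. The members with the lowest edgeR values, named after they were seen, were KAT2B (-0.68 ± 0.14, adjusted p = 0.021), CBX5 (0.55 ± 0.14, adjusted p = 0.049) and KDM3A (-0.50 ± 0.13, adjusted p = 0.052). KAT2B lay at 59.2 and 56.8 CPM in vehicle, 81.4 and 78.8 in EC359, 53.4 and 52.1 in vorinostat and 48 and 42.9 in the combination. HMGA1 had the largest value, -1.02 ± 0.32 (adjusted p = 0.1). Without EC359 replicate 1 the count was 4, beside 10.0% of all genes, and without EC359 replicate 2 it was 9, beside 10.1%.

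Transcript length and base composition differed between the sets of members. Members lower under vorinostat had a median canonical transcript of 5274 bases and 54.7% GC, those higher had 5676 bases and 47.1% GC, and those that did not pass had 4794.5 bases and 50.2% GC. All tested genes with an annotation had medians of 3342 bases and 48.4% GC. With an offset for both properties in each library, an alternative added after seeing the data, 32 members were lower and 6 higher under vorinostat. In that fit 53.9% of all tested genes passed in either direction, and their split by direction is not given here.

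Promoters are printed for the ATPase pair that moved oppositely, for the 2 members with large decreases CHD3 and ARID1A, for KDM4B, which rose, and for HMGA1, which rose with EC359. They are the 250 bases before the first start listed by RefSeq on GRCh38.p14, a later build than the one used for counting, and run 5′ to 3′ on the gene's strand. Other listed starts of a gene were not examined, and a first listed start may lie inside the gene. Which start BT-549 cells use was not tested. Capitals mark the GC box, GGGCGG or CCGCCC on the opposite strand, the motif of Sp and KLF factors.
SMARCA2, chr9:2015097-2015346, plus strand: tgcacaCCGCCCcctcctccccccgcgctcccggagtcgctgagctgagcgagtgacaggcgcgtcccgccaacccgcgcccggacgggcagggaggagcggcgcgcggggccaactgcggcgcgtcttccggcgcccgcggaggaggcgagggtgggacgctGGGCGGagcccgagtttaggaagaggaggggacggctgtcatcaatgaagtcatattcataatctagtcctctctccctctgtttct
SMARCA4, chr19:10960780-10961029, plus strand: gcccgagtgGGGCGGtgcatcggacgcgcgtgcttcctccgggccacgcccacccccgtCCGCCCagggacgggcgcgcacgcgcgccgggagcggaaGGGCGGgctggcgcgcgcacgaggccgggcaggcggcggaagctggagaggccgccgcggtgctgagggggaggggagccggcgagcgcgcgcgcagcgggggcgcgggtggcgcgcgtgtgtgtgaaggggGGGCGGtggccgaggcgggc
CHD3, chr17:7888539-7888788, plus strand: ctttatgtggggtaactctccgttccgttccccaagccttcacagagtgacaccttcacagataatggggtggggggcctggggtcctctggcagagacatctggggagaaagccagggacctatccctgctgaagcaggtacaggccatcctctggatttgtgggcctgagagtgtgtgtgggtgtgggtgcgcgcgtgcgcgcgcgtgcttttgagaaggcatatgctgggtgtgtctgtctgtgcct
ARID1A, chr1:26695765-26696014, plus strand: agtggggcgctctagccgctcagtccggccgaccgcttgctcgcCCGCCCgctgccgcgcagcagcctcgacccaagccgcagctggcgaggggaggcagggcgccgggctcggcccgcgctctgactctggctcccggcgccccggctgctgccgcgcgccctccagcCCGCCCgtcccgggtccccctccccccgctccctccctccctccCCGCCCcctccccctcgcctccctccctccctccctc
KDM4B, chr19:4968863-4969112, plus strand: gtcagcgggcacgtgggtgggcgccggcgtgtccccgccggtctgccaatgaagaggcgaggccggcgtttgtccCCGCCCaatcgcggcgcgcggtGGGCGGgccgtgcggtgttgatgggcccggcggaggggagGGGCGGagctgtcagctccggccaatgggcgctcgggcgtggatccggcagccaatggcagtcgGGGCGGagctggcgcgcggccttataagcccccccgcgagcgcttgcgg
HMGA1, chr6:34236623-34236872, plus strand: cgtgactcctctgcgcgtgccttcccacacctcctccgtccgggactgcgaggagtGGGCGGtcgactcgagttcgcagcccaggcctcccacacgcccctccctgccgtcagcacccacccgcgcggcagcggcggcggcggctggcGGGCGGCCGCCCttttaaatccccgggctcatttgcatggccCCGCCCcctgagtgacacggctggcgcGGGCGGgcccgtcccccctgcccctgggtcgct
The 250-base window held 2 GC boxes in SMARCA2, 4 in SMARCA4, 0 in CHD3, 3 in ARID1A, 4 in KDM4B and 5 in HMGA1. The CHD3 window may belong to a start inside the gene, so its 0 holds for that window alone. A window was listed for 55 of the 57 members. At least 1 GC box was found in 58.2% of these and in 42.6% of the 35116 promoter windows of all genes. Each member has 1 window, but the 35116 hold every listed window, also of genes not tested here. The shares of members and of all windows, here and for the motifs below, are therefore not of like sets. The share was 50.0% (15 of 30) for members lower under vorinostat, 83.3% (5 of 6) for those higher and 63.2% (12 of 19) for those that did not pass. The CCAAT box, CCAAT or ATTGG, was in 29.1% of the members and 32.0% of all windows. The TATA box, TATAAA or TTTATA, was in 1.8% and 10.7%. A match is a match of letters and does not show that a factor binds there.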

How the data were processed

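RNA from BT-549 cells, in 4 groups of 2 libraries named by the labels, was sequenced as single-end reads from an Illumina TruSeq kit. Alignment by the authors used TopHat2 (2.0.8b, per the submitters' processing notes) on hg19, and HTSeq assigned reads to RefSeq genes. The authors deposited raw counts per gene symbol, and the 5 HTSeq summary lines per list were left out, with 85.1% to 88.1% of unique alignments on genes. The HTSeq version and strand setting are not given in the sources used here.

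Genes were filtered with filterByExpr and scaled by TMM in edgeR 4.0.16 (R 4.3.3). All 8 libraries entered 1 quasi-likelihood fit, in which each group had its own mean (common dispersion 0.0135), and p-values were adjusted over 13694 genes by the Benjamini-Hochberg method. A member passed at an adjusted p under 0.01, and strong calls also needed an absolute log2 fold change over 1, which is the joint rule of the study. On simulated counts for 13374 genes of vorinostat against vehicle, the test recovered 75% of 100 genes changed by 1 and 95% of 100 changed by 2 on the log2 scale, with 0 unchanged genes called. The simulation gave every gene and group the common dispersion and changed 200 genes. In the data the standard deviation of the log2 difference between replicates ran from 0.31 in vorinostat to 0.56 in EC359. Under vorinostat 52.1% of all tested genes passed, so these rates may not hold for the data.

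Per-library values are given for members strongly called in vorinostat or the combination against vehicle, for those that passed with a log2 fold change over 0.5 under EC359 or in the combination against vorinostat, and for paralog pairs with opposite strong calls. Values of other members serve as comparisons. The members, gene lists and naming rule were chosen with earlier results of these data known. Coordinates, lengths and GC content come from the canonical transcripts of GENCODE on GRCh37, matched for 94.9% of tested genes. The alternatives comprised RLE and total-count scaling, DESeq2 1.42.0, other filters and thresholds, fits on the groups compared, a replicate block and leaving out each library.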

Additional observations from a re-analysis of the deposited data

How the results depend on the processing

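No member that passed changed direction under any alternative tried. Calls are marked as lost in the text for some members only, and others were lost too. The RCOR1 calls against vehicle, for example, were lost under 4 alternatives for vorinostat and 9 for the combination. With the stricter rule of an absolute log2 fold change over 1 as well, the counts against vehicle were 3 (EC359), 21 (vorinostat) and 19 (combination). The shares of all tested genes were 3.67%, 30.1% and 34.8%. For the combination 1 member passed against vorinostat, beside 4.25%, and 22 against EC359, beside 33.7%. At an adjusted p under 0.05, 10 passed for EC359 against vehicle, 16 for the combination against vorinostat and 2 for the interaction. The shares of all tested genes at that threshold are not given here, so these counts cannot be set against them. DESeq2 gave 13 for the combination against vorinostat, beside 20.4% of all tested genes, and 1 for the interaction, beside 5.21%. A fit on only the groups compared gave 0 for EC359 against vehicle, beside 1.94% of all genes then tested. Under vorinostat it added EP300, TET3, KDM6B, SUV39H2, DOT1L, BRD2, HMGA1 and HMGN5 and lost none, beside 71.9%. For the combination against vehicle it added KDM2A, BRD2, BRD7, SAP30, HMGA2 and HMGN5 and lost none, beside 67.1%. Against EC359 it added none and lost TET1, TET3, SETDB1, BRD7 and RCOR1, beside 44.1%. For the combination against vorinostat that fit gave 16, beside 32.2%. The offset for GC content and transcript length gave 1 for the interaction, beside 2.70% of all tested genes. Leaving out each library in turn gave 0 to 16 members for EC359 against vehicle, 28 to 45 for vorinostat, 30 to 44 for the combination against vehicle, 0 to 19 against vorinostat, 33 to 41 against EC359 and 0 to 9 for the interaction. The share of all genes that passed also moved with the library left out. In each comparison both the member count and that share were highest where an EC359 library was left out. The swing in the member counts is therefore not particular to the members. The cause of these changes was not tested. RLE, total-count scaling and both other filters kept every count within 1.5 times, and the filter-free fit moved the median of all genes to 0.13 under vorinostat.

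Samples with the same replicate number had deviations correlated between -0.173 and 0.231, so the numbers were not taken to pair the libraries. With the replicate block 2 members passed for the combination against vorinostat, HMGA2 and SMARCB1, beside 11.4% of all tested genes. Without the block 8 passed, beside 13.7%. The other counts stayed within 1.5 times. They were 6, 36 and 36 for EC359, vorinostat and the combination against vehicle, beside 6.30%, 49.7% and 54.5%. A block with the combination numbers crossed, added after seeing the data, gave 8, 38, 38, 12, 39 and 0 members in the 6 comparisons. The shares of all tested genes were 10.3%, 55.9%, 60.0%, 19.0%, 59.2% and 3.48% in the same order. With 2 libraries a group, small changes in members of low count could be missed.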
